A study of Danio rerio with 7 samples.

Results

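Progesterone was compared with its solvent DMSO in sox10-positive cells sorted from zebrafish (Danio rerio) embryos that carried a ctr9 morpholino. The comparison uses 4 of the 7 samples of the series, 2 libraries with progesterone and 2 with DMSO, each named by treatment and by experiment 1 or 2. Per the labels, embryos were kept at 28 °C and exposed to DMSO or to 32 µM progesterone between 50% epiboly and the 15-somite stage, and the sox10-positive cells were then sorted from dissociated embryos. All 4 libraries, the DMSO controls included, are of ctr9 morphants. Morpholinos are antisense oligonucleotides that interfere with the translation or the splicing of a target mRNA for the first days of development, so a morphant is a transient knockdown and not a mutant. The sources used here give neither its dose nor the reporter used for the sort. 2 libraries of uninjected embryos in DMSO, whose columns are named by 5 ng and 10 ng, entered the fit for the estimate of spread, and their values are printed as the level without morpholino and progesterone. What the amounts refer to is not stated, and these columns carry no experiment number. Their ERCC spike-in transcripts summed to 1.96 and 22.4 FPKM, against 69.3 to 229 in the morphant libraries. Whether they were prepared in the same way was not tested. Uninjected embryos in progesterone were not analysed here, so each difference below is that of progesterone in ctr9 morphants.

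Sox10 is a transcription factor of the neural crest, the migratory population at the border of the neural plate that gives rise to pigment cells, peripheral neurons and glia and much of the head skeleton, and it is also made in the otic vesicle. Ctr9 encodes a component of the PAF1 complex, a set of proteins bound to RNA polymerase II during elongation of transcripts. Progesterone is a steroid hormone that acts through a nuclear receptor and through membrane receptors, and in cultured mammalian cells high concentrations of it are known to hold back the movement of cholesterol out of lysosomes. Several of the gene groups below belong to the integrated stress response, in which kinases that sense amino acid shortage or unfolded proteins phosphorylate the initiation factor eIF2, general translation slows, and the factor ATF4 is made and turns on genes of amino acid uptake and synthesis.

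Values are scaled FPKM, that is FPKM divided by a median-ratio size factor of each library, listed in the order experiment 1, experiment 2, or 5 ng, 10 ng for the uninjected libraries. Changes are log2 differences of progesterone minus DMSO on the log2(scaled FPKM + 1) scale with their standard error, which understates the change of low genes. Of 33735 genes, 13145 had a mean FPKM of at least 1 over the 6 libraries and were tested with limma. Whether the libraries of a group were made from separate clutches is not said, so p-values cover the spread among the libraries alone, and that spread may be technical. The sources used here do not give the read depth behind each value. An exact permutation test of 2 libraries against 2 cannot give a two-sided p below 0.333.

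The progesterone libraries stood apart from the others before any gene was compared. The size factor was 0.934 in experiment 1 and 0.582 in experiment 2, against 1.09 to 1.31 in the other 4 libraries. Genes at 1 FPKM or more numbered 11776 and 9575 with progesterone and between 13055 and 13528 elsewhere. Of genes at a mean of 1 to 5 scaled FPKM with DMSO, the progesterone libraries listed 8.74% and 20.4% at 0, against at most 1.27% in the others, and among genes at 100 or more the shares were 1.51% and 2.11%, against 0.302% to 1.51%. Small non-coding RNA took 20.5% and 30.3% of the FPKM total in the progesterone libraries and 16.0% or less elsewhere. Genes listed at 0 in both progesterone libraries are therefore given by their values, with no fold against them. Their part in the differences was not tested.

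**Figure D1:**
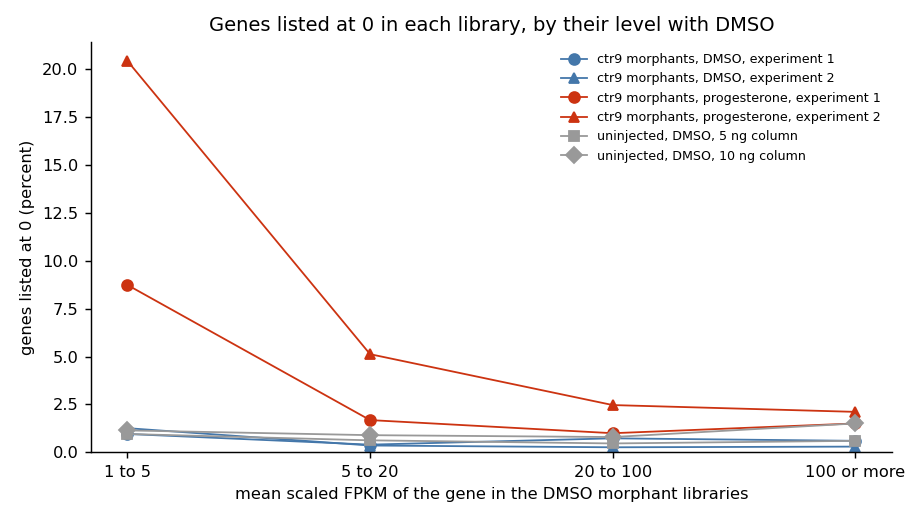
Share of genes listed at 0 FPKM (vertical axis, percent) in each of the 6 libraries, for genes grouped by their mean scaled FPKM in the DMSO libraries of ctr9 morphants (horizontal axis). At 1 to 5 scaled FPKM the progesterone libraries stood at 8.74% and 20.4% and the other 4 libraries at 1.27% or less.

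At an adjusted p of at most 0.05, 1 gene was higher with progesterone (0.00761% of the genes tested) and 0 were lower (0%). At an unadjusted p under 0.05, a description and not a call, 953 genes were higher (7.25%) and 1277 lower (9.71%). In 2592 genes both progesterone libraries lay above both DMSO libraries (19.7%), and in 3272 both lay below (24.9%). These percentages are the background for the counts of list members below. The median change of all tested genes was -0.09, so more of them had a change below 0 than above it. Counts of list members by sign are read against that. The number of calls depended on each of the 4 morphant libraries: without the progesterone library of experiment 1, limma called 1060 genes higher and 1550 lower, without the progesterone library of experiment 2 it called 19 and 2, and without either DMSO library it called 0 and 0. In each case the lone library is assumed to vary like the other groups. They depend on scaling: with FPKM as deposited the median change of all tested genes was -0.58 in place of -0.09, with 247 genes higher and 2608 lower at an unadjusted p under 0.05. Of the 1277 lower genes, 460 were listed at 0 in at least 1 progesterone library and 186 in both. A change by experiment sets the progesterone library against the DMSO library of the same number, which the labels do not pair. Across genes, which are not independent replicates, the changes in experiments 1 and 2 correlated at r = 0.207. In 7667 genes (58.3%) they had the same sign.

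**Figure D2:**
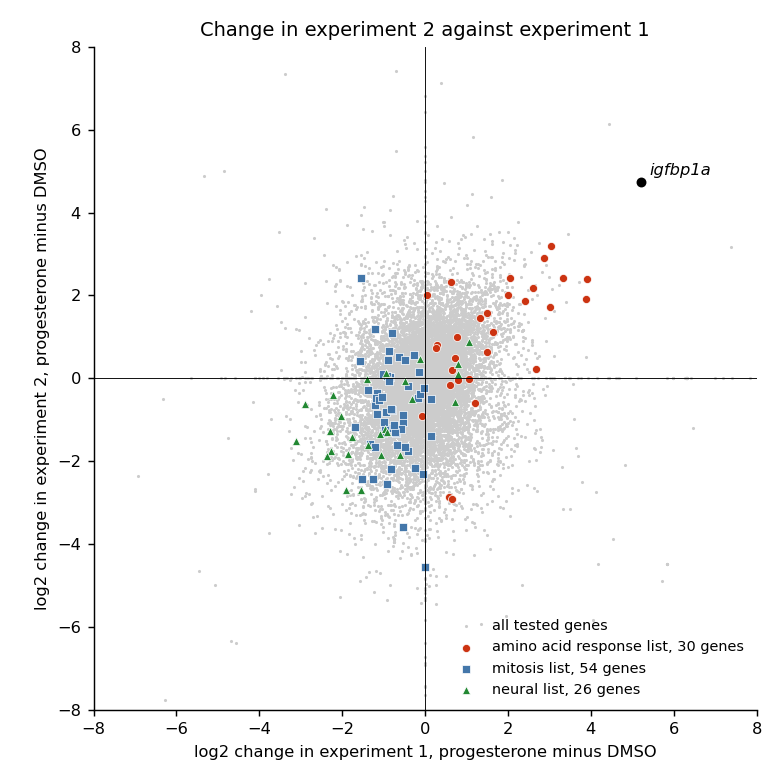
Log2 change with progesterone in experiment 2 (vertical axis) against that in experiment 1 (horizontal axis), with 1 point for each of the 13145 tested genes. Genes of the amino acid response, mitosis and neural lists are coloured, igfbp1a is labelled at 5.20 and 4.74, and 5 genes lie outside the axes, which end at 8.

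Igfbp1a (ENSDARG00000014947) was the gene that rose. It encodes a secreted protein that binds insulin-like growth factors and limits their access to the receptor, and it is a known target of FOXO factors, hypoxia and the amino acid response. Its level was 1.901 and 1.69 scaled FPKM with DMSO and 106 and 70.9 with progesterone, and 4.602 and 5.62 in uninjected cells. Both progesterone libraries thus lay far above all 4 others. The change was 4.97 ± 0.30 (limma adjusted p = 0.0439), 5.20 and 4.74 in experiments 1 and 2. The sign held under all 17 alternatives, but under 13 of them the adjusted p passed 0.05: limma's adjusted p was 0.140 with FPKM as deposited, 0.347 with the 4 morphant libraries alone and between 0.0119 and 0.375 with 1 library left out.

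Genes of the amino acid response, the ATF4 targets of amino acid transport and synthesis with their regulators, had a change above 0 in 26 of the 30 members tested, out of 39 in the table. Of the 30, 15 were higher and 0 lower at an unadjusted p under 0.05, against a background of 7.25% and 9.71%. In 20 both progesterone libraries lay above both DMSO libraries, against 19.7% of all genes. The median change was 1.22 (1.26 and 1.06 in the 2 experiments), and 0.60 with FPKM as deposited. No member passed the adjusted threshold: the smallest adjusted p was 0.124. 5 of the 30 averaged under 1 scaled FPKM with DMSO, so the filter may have kept them for their level with progesterone, and 12 of the 15 higher genes stood at 1 or more with DMSO.

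Sesn2, a sestrin that restrains mTORC1 when leucine is short, stood at 1.75 and 1.55 with DMSO and at 21.7 and 22.3 with progesterone (3.12 ± 0.30), beside 1.88 and 2.03 in uninjected cells. The neutral amino acid transporter gene slc1a4 stood at 4.203 and 9.53 with DMSO and at 76.5 and 54.2 with progesterone (3.14 ± 0.40), and uninjected cells had 10.5 and 8.77. A pair of entries named slc1a5, the ASCT2 glutamine transporter, stood at 2.46 and 3.72 with DMSO and at 19.9 and 20.5 with progesterone (2.39 ± 0.29) for ENSDARG00000090706 and stood at 5.79 and 5.7997 with DMSO and at 34.9 and 23.9 with progesterone (2.14 ± 0.28) for ENSDARG00000016465; reads could be split between them, so each level is uncertain. In each of these entries both progesterone libraries lay above the 4 others. For the exchanger of large neutral amino acids, the heavy chain gene slc3a2b stood at 2.001 and 1.28 with DMSO and at 21.02 and 16.1 with progesterone (2.89 ± 0.36), and the light chain entry SLC7A5, named after its values were seen, stood at 0.535 and 0.647 with DMSO and at 14.5 and 7.89 with progesterone (2.89 ± 0.42). Both chains were under 3 scaled FPKM in all libraries without progesterone. SLC7A5 averaged under 1 with DMSO, so the filter may have kept it for its level with progesterone. For each of these 6 entries the limma adjusted p was 0.124.

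The next genes, textbook members of this response, were named after their values were seen. Asns, asparagine synthetase, stood at 11.5 and 13.7 with DMSO and at 37.6 and 30.8 with progesterone (1.37 ± 0.24), with 14.3 and 13.3 in uninjected cells (adjusted p = 0.141). The transcription factor gene atf4b1 stood at 70.9 and 91.9 with DMSO and at 122 and 184 with progesterone (0.88 ± 0.27) and trib3, a pseudokinase that feeds back on ATF4, stood at 9.68 and 19.9 with DMSO and at 29.3 and 31.4 with progesterone (1.07 ± 0.35). For these 3 genes both progesterone libraries lay above the 4 others. A second ATF4 gene, atf4b2, stood at 48.5 and 32.98 with DMSO and at 76.7 and 38.1 with progesterone (0.43 ± 0.38). Its groups overlapped, and uninjected cells had 67.1 and 71.6. Chac1, a glutathione-degrading enzyme, stood at 9.62 and 12.98 with DMSO and at 66.6 and 15.4 with progesterone (1.45 ± 0.64), a wide gap in experiment 1 and a narrow one in experiment 2. Ddit3, the CHOP factor, stood at 4.72 and 5.66 with DMSO and at 10.9 and 5.62 with progesterone (0.53 ± 0.41), with overlapping groups. Ddit4, an inhibitor of mTORC1, stood at 15.3 and 0.107 with progesterone against 9.48 and 7.33 with DMSO, high in experiment 1 and low in experiment 2. In uninjected cells chac1 was at 36.6 and 38.1 and trib3 at 24.1 and 25.3, above their levels in the DMSO morphants.

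**Figure D3:**
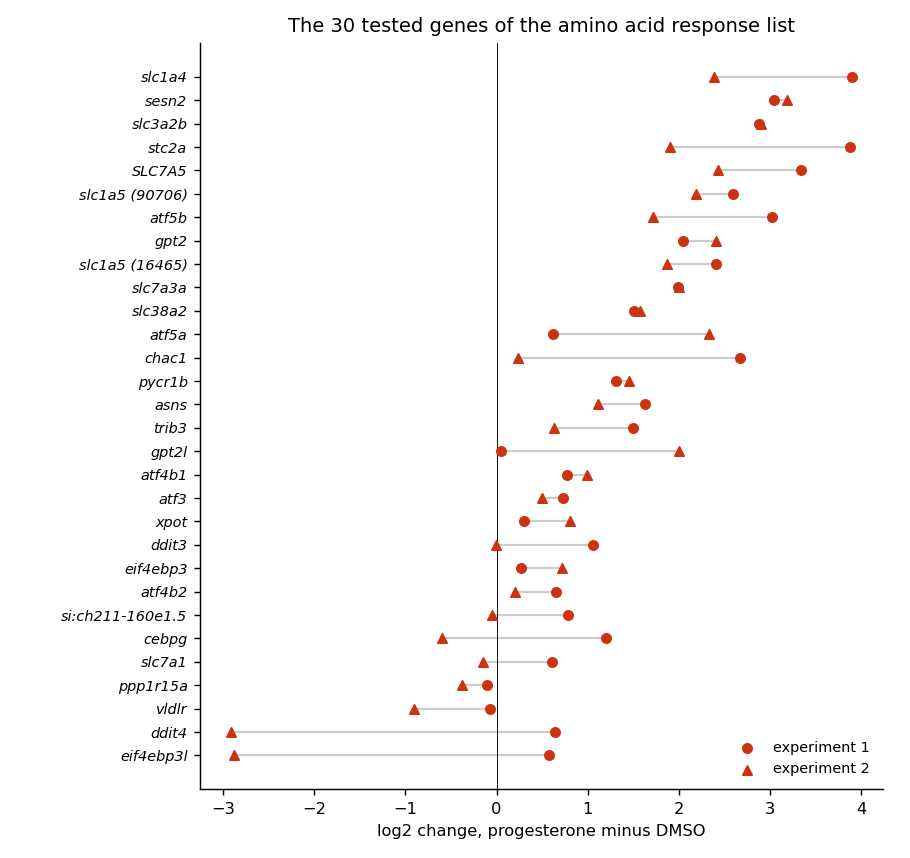
Log2 change with progesterone (horizontal axis) in experiment 1 (circles) and experiment 2 (triangles) for the 30 tested genes of the amino acid response list, ordered by their change over both. Slc1a4, sesn2 and slc3a2b stand at the top with changes over 2 in both experiments, and ddit4 and eif4ebp3l at the bottom, above 0 in experiment 1 and below 0 in experiment 2.

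The list of serine, one-carbon and transsulfuration genes held 4 of the 15 higher genes with the smallest p. Mitochondrial one-carbon metabolism turns serine into glycine and formate for nucleotide synthesis, and transsulfuration draws homocysteine into cysteine synthesis. Of 26 tested genes 10 were higher and 1 lower at an unadjusted p under 0.05, and 9 of the higher genes averaged 1 or more with DMSO. The list median was 0.28 (-0.21 with FPKM as deposited, which is 0.37 above the median of all genes on that scale, against 0.37 above it with scaling). It rested on which library was used: without the progesterone library of experiment 1 it was 0.77, without that of experiment 2 it was 0.70 and without the DMSO library of experiment 1 it was 0.60.

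Phgdh, the first enzyme of serine synthesis, stood at 9.34 and 15.9 with DMSO and at 85.4 and 73.98 with progesterone (2.61 ± 0.30). Shmt2, which splits serine in mitochondria, stood at 14.9 and 15.3 with DMSO and at 51.8 and 50.8 with progesterone (1.70 ± 0.21). Aldh1l2, which oxidises mitochondrial formyl-folate, stood at 2.67 and 1.35 with DMSO and at 16.1 and 21.01 with progesterone (2.72 ± 0.36). In each of the 3 both progesterone libraries lay above the 4 others, with uninjected cells at 20.9 and 18.5 for phgdh, 11.2 and 12.4 for shmt2 and 2.92 and 2.57 for aldh1l2. Cbsb, a cystathionine beta-synthase that draws homocysteine into cysteine synthesis, stood at 8.88 and 7.74 with DMSO and at 50.6 and 57.2 with progesterone (2.56 ± 0.23). Both progesterone libraries again exceeded the other 4. Mthfd2, the mitochondrial methylene-folate dehydrogenase, stood at 5.395 and 6.496 with DMSO and at 22.1 and 24.5 with progesterone (1.81 ± 0.25), named after its values were seen, as was psat1, the second enzyme of serine synthesis, which stood at 6.13 and 7.12 with DMSO and at 52.2 and 21.3 with progesterone (2.18 ± 0.44). The gene of the cytosolic counterpart of shmt2, shmt1, stood at 46.1 and 23.7 with DMSO and at 77.4 and 17.03 with progesterone (0.14 ± 0.70), with overlapping groups; it too was named after its values were seen. Gcsha, a glycine cleavage protein gene, was the member lower at an unadjusted p under 0.05, at 10.4 and 4.18 with DMSO and 1.07 and 0.299 with progesterone (-2.23 ± 0.51).

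Cytosolic aminoacyl-tRNA synthetases, which load amino acids onto tRNAs and include many ATF4 targets, had a change above 0 in 20 of 22. All 22 in the table were tested, 10 were higher and 1 lower at an unadjusted p under 0.05, and the median was 0.82 (0.80 and 0.82 by experiment; 0.18 as deposited). Nars, for asparagine, stood at 25.4 and 29.3 with DMSO and at 89.0004 and 87.9 with progesterone (1.66 ± 0.22), and aars, for alanine, stood at 31.1 and 35.2 with DMSO and at 86.5 and 127 with progesterone (1.63 ± 0.25). Farsa, a phenylalanine subunit, stood at 19.3 and 19.8 with DMSO and at 43.3 and 47.5 with progesterone (1.18 ± 0.20), and iars, for isoleucine, stood at 33.03 and 33.8 with DMSO and at 66.7 and 82.4 with progesterone (1.13 ± 0.21). In these 4 genes the progesterone libraries stood above all 4 others, and uninjected cells were close to the DMSO morphants, as with nars at 26.8 and 21.3. The synthetase genes for lysine (kars) and arginine (rars), named after their values were seen, overlapped between groups. Kars stood at 86.5 and 84.8 with DMSO and 93.96 and 74.5 with progesterone, and rars stood at 34.8 and 25.1 with DMSO and 36.9 and 27.9 with progesterone. A pair of entries named larsa went in opposite directions, 0.89 ± 0.23 for ENSDARG00000090988 and -0.999 ± 0.24 for ENSDARG00000089031, and since reads could be split between them, neither gives the level of the leucine synthetase; they were named after their values were seen.

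Endoplasmic reticulum stress genes, the targets of ATF6, XBP1 and PERK that fold, modify and clear secreted proteins, had a change above 0 in 27 of the 30 tested. Of 32 in the table, 30 were tested, 14 higher and 0 lower at an unadjusted p under 0.05, with a median of 1.05 (0.81 and 0.98 by experiment; 0.43 as deposited). In 21 of the 30 the progesterone libraries lay above both DMSO libraries, and all 14 higher genes averaged 1 or more with DMSO. Manf, a secreted protective factor of stressed cells, stood at 7.55 and 6.33 with DMSO and at 26.7 and 24.998 with progesterone (1.76 ± 0.26). Dnajb9b (ENSDARG00000016886), a co-chaperone of the lumen, stood at 0.557 and 1.64 with DMSO and at 11.3 and 13.3 with progesterone (2.71 ± 0.41). Pdia4, a disulfide isomerase, stood at 4.37 and 3.64 with DMSO and at 14.9 and 20.8 with progesterone (1.90 ± 0.30), and herpud1, of the degradation complex, stood at 6.05 and 9.86 with DMSO and at 28.1 and 44.1 with progesterone (2.05 ± 0.34). The 4 genes had limma adjusted p between 0.124 and 0.141, and the progesterone libraries were the 2 highest in each.

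Of the main chaperones of the lumen, hspa5 and hsp90b1 were highest in the progesterone library of experiment 2. Hspa5, the BiP chaperone, stood at 111 and 224 with DMSO and at 303 and 1199.6 with progesterone (1.92 ± 0.67), and hsp90b1, its HSP90 partner, stood at 23.7 and 34.4 with DMSO and at 74.6 and 193 with progesterone (2.03 ± 0.46); both were named after their values were seen. Uninjected cells had 258 and 248 for hspa5 and 55.5 and 57.4 for hsp90b1, above both DMSO libraries, and the DMSO library of experiment 1 was the lowest of all 6. Calr, calreticulin, stood at 34.4 and 33.95 with DMSO and at 44.6 and 38.01 with progesterone (0.26 ± 0.20), and p4hb, the main disulfide isomerase, stood at 50.5 and 51.7 with DMSO and at 60.2 and 66.97 with progesterone (0.31 ± 0.19). Their progesterone values exceeded all others by small margins. Ern1, the IRE1 sensor, stood at 8.17 and 7.63 with DMSO and at 25.1 and 2.26 with progesterone (0.053 ± 0.95), the highest and the lowest of all 6 values. Calr, p4hb and ern1 were also named after their values were seen.

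**Figure D4:**
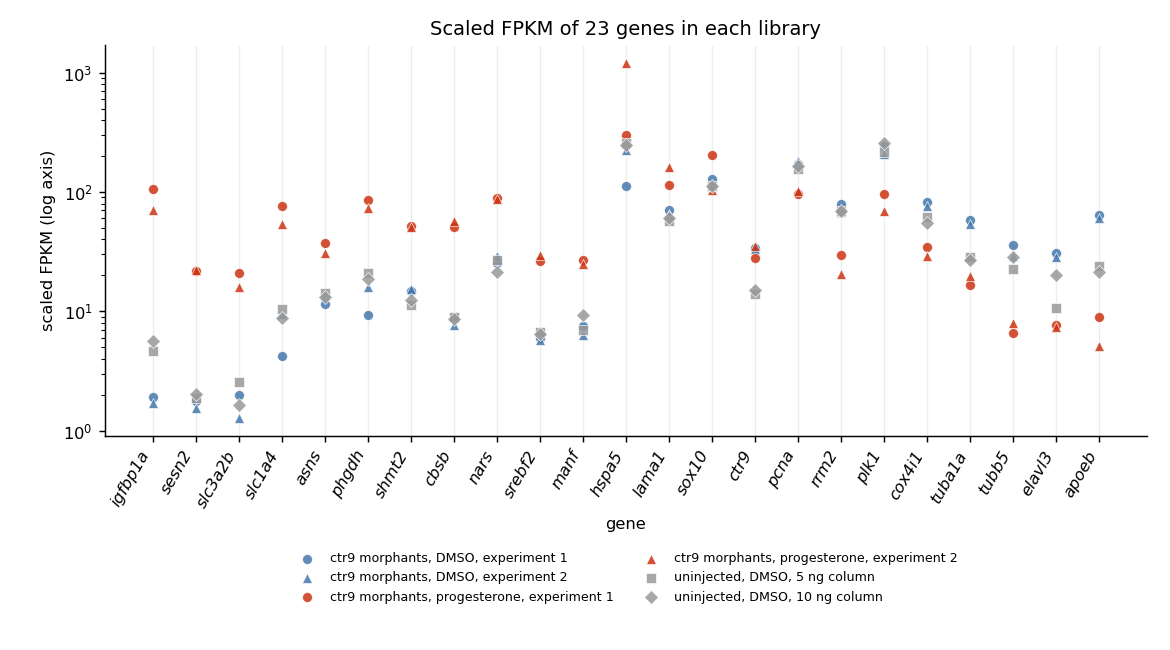
Scaled FPKM (vertical axis, log scale) of 23 genes in each of the 6 libraries, where blue stands for DMSO and red for progesterone in ctr9 morphants, grey for uninjected cells, circles for experiment 1 and triangles for experiment 2. From igfbp1a to manf the red points lie above all others, for sox10 and ctr9 they overlap the blue ones, and from pcna to apoeb they lie below all others; rrm2 is the entry ENSDARG00000020711.

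Sterol genes had a change above 0 in 10 of the 17 tested and below 0 in 7. The change of 11 lay above the median of all genes, so the split by sign was not far from even. SREBP-2, encoded by srebf2, turns on cholesterol synthesis and uptake when membrane cholesterol is low, and SREBP-1 does the same for fatty acids. Srebf2 stood at 5.93 and 5.72 with DMSO and at 26.5 and 29.9 with progesterone (2.09 ± 0.24), and srebf1 stood at 2.26 and 1.43 with DMSO and at 12.2 and 17.1 with progesterone (2.46 ± 0.35). Both progesterone libraries lay above the other 4 for each. The entry FDFT1, squalene synthase, stood at 1.14 and 0 with DMSO, listed at 0 in experiment 2, and at 5.303 and 10.1 with progesterone. This SREBP-2 target stood above all other libraries with progesterone, at a low level. Of 34 sterol genes in the table, 17 were tested. At an unadjusted p under 0.05, 8 were higher (47.1%) and 2 lower (11.8%), against a background of 7.25% and 9.71%. Of the higher genes 7 were at a mean of 1 or more with DMSO. The list median was 0.31 (0.76 and -0.0062 by experiment), and -0.28 with FPKM as deposited. It was 0.71 without the progesterone library of experiment 2 and 0.67 without the DMSO library of experiment 2. Over all alternatives other than FPKM as deposited it ranged from -0.76 to 0.71, with the sign turned in 1. Hmgcrb, an HMG-CoA reductase and the rate-limiting step of cholesterol synthesis, stood at 5.19 and 8.16 with DMSO and at 4.75 and 5.35 with progesterone (-0.32 ± 0.33), with overlapping groups, and was named after its values were seen. Insig1, which holds SREBP in the endoplasmic reticulum and is itself a target, stood at 1.84 and 5.85 with DMSO and at 9.81 and 14.2 with progesterone (1.54 ± 0.51), again above all others; it was named after its values were seen.

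Genes of cholesterol efflux and lysosomal lipid transport went both ways, with 2 higher and 5 lower of 19 tested and a median of 0.0059 (-0.42 as deposited), whose sign turned between 0.31 and -0.27 when the progesterone library of experiment 1 or 2 was left out. Apoeb, an apolipoprotein E gene made in the yolk syncytial layer and in several embryonic tissues, had the smallest p of all lower genes: it stood at 64.4 and 61.02 with DMSO and 8.95 and 5.12 with progesterone (-3.03 ± 0.29, adjusted p = 0.124), beside 24.1 and 21.2 in uninjected cells. Apoc1l, another apolipoprotein gene, was at 2.74 and 3.94 with DMSO and listed at 0 in both progesterone libraries. Ctsd, the lysosomal protease cathepsin D, stood at 49.1 and 42.6 with DMSO and at 25.2 and 28.5 with progesterone (-0.75 ± 0.21). Mylipa, a ubiquitin ligase and LXR target, stood at 2.27 and 1.98 with DMSO and at 4.898 and 10.95 with progesterone (1.43 ± 0.46). Ctsd was below and mylipa above all other libraries with progesterone. The lysosomal cholesterol carriers npc1 and npc2, named after their values were seen, stood at 8.46 and 6.51 for npc1 and 4.54 and 5.32 for npc2 with DMSO, and at 8.89 and 10.4 (npc1) and 4.13 and 3.89 (npc2) with progesterone, differences of 0.33 ± 0.30 and -0.24 ± 0.38.

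Apoeb and apoc1l also belong to the list of endoderm, yolk and hatching gland markers, cell types other than the sorted one. Of 31 such genes 9 were tested and 4 were lower at an unadjusted p under 0.05, 3 of them listed at 0 in at least 1 progesterone library. He1b and he1a, the hatching enzymes, stood at 1.85 and 2.09 and at 2.79 and 1.59 with DMSO, and at 0 and 0 (he1b) and 0.315 and 0 (he1a) with progesterone. Summed over the 31 genes the level was 91.2 and 94.7 with DMSO, 25.03 and 19.9 with progesterone and 53.8 and 43.1 in uninjected cells, with 16 and 16 genes listed at 0 with DMSO and 21 and 21 with progesterone. In this sum both progesterone libraries were below the 4 others. Apoeb made up most of it with DMSO, at 64.4 and 61.02, against 8.95 and 5.12 with progesterone. The endoderm markers sox17, sox32, foxa2 and gata6 were listed at 0 in all 6 libraries. Foxa1, foxa3, gata5 and pdx1, further such markers, were named after their values were seen. Foxa1 stood at 2.37 and 2.76 with DMSO, 0.431 and 4.08 with progesterone and 1.85 and 1.70 in uninjected cells, with overlapping groups. Foxa3, gata5 and pdx1 did not exceed 0.328 in any library. In bulk samples fewer cells of a type and less RNA per cell cannot be told apart, here and for every marker list below.

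The nuclear progesterone receptor gene pgr was listed at 0 in all 4 morphant libraries and at 0 and 0.0919 in uninjected cells. Paqr7a, paqr5a and paqr5b, membrane progestin receptor genes, were listed at 0 in the 4 morphant libraries too, and paqr7b and paqr8 did not exceed 1.24. Paqr6, of the same family, stood at 1.83 and 2.59 with DMSO, 2.86 and 0 with progesterone and 1.51 and 1.96 in uninjected cells. Its groups overlapped, and it was named after its values were seen. Of 21 receptor genes 7 were tested. Pgrmc1, a membrane-associated progesterone-binding protein, stood at 12.6 and 16.6 with DMSO and at 7.15 and 6.14 with progesterone (-1.02 ± 0.28), lower in both progesterone libraries than in the other 4. Its paralog pgrmc2 stood at 13.6 and 14.6 with DMSO and at 8.72 and 18.9 with progesterone (-0.12 ± 0.38), with overlapping groups. Nr3c1, the glucocorticoid receptor, stood at 3.31 and 4.27 with DMSO and at 5.32 and 8.39 with progesterone (0.69 ± 0.35), with both progesterone libraries above the 4 others at an unadjusted p over 0.05, and nr3c2, the mineralocorticoid receptor, did not exceed 0.141 in the morphant libraries. Of the 7 tested receptor genes 0 were higher and 1 lower at an unadjusted p under 0.05, the latter pgrmc1, and their median was -0.57.

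Known targets of the progesterone and corticoid receptors showed no shared direction: of 16 tested, 2 were higher and 3 lower at an unadjusted p under 0.05, with a median of 0.15 (-0.36 as deposited). Zbtb16a, the PLZF factor, stood at 132 and 139 with DMSO and at 289 and 225 with progesterone (0.90 ± 0.22), but uninjected cells were at 251 and 261, within the range with progesterone. Tsc22d3, the GILZ gene, was at 2.33 and 1.79 with DMSO and 0 and 0.0842 with progesterone. Pck2, the mitochondrial phosphoenolpyruvate carboxykinase, which in mammals is also an ATF4 target, stood at 0.513 and 0.736 with DMSO and at 3.97 and 2.63 with progesterone (1.39 ± 0.43). Nfkbiab, an inhibitor of NF-kappaB, stood at 18.8 and 16.6 with DMSO and at 8.43 and 0.748 with progesterone (-2.20 ± 0.75). Pck2 averaged under 1 with DMSO, so the filter may have kept it for its level with progesterone, and without it 1 gene of the list was higher. In pck2 the progesterone libraries were the highest, and in tsc22d3 and nfkbiab the lowest. Sgk1, the other lower gene, stood at 12.3 and 22.8 with DMSO and at 1.72 and 10.2 with progesterone (-1.69 ± 0.68). Sgk1, fkbp5 and klf9 were named after their values were seen, the last 2 as usual readouts of the glucocorticoid receptor. Fkbp5 stood at 0.551 and 1.53 with DMSO and at 3.74 and 2.26 with progesterone (0.99 ± 0.45), above but at an unadjusted p over 0.05. Klf9 stood at 2.11 and 0.524 with DMSO and at 0 and 4.03 with progesterone, with overlapping groups.

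Beside igfbp1a, the insulin-like growth factor and FOXO list had 6 of 22 tested genes higher, igfbp1a included, and 0 lower at an unadjusted p under 0.05, with a median of 0.66 (0.70 and 0.78 by experiment). Txnipa, an arrestin that limits glucose uptake, stood at 60.1 and 64.9 with DMSO and at 117 and 258 with progesterone (1.46 ± 0.38). Igf2r, which clears IGF2, stood at 6.91 and 5.36 with DMSO and at 11.2 and 17.7 with progesterone (1.09 ± 0.33), and txnipb stood at 1.195 and 0.924 with DMSO and at 3.19 and 4.95 with progesterone (1.28 ± 0.45). In all 3 genes the progesterone libraries were above the 4 others and experiment 2 was the higher. The ligand gene igf2a, named after its values were seen, stood at 4.21 and 10.7 with DMSO, at 7.88 and 26.5 with progesterone and at 0.313 and 0.626 in uninjected cells.

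Hypoxia genes had 7 of 21 tested higher and 0 lower at an unadjusted p under 0.05, igfbp1a included, with a median of 0.23 (-0.20 as deposited, 0.77 without the progesterone library of experiment 2), and 6 of the higher genes averaged 1 or more with DMSO. Bnip3lb, a mitophagy receptor, stood at 0.644 and 1.397 with DMSO and at 4.16 and 7.39 with progesterone (1.73 ± 0.45), and the glucose transporter gene slc2a1b stood at 1.24 and 3.56 with DMSO and at 7.31 and 13.2 with progesterone (1.76 ± 0.48). P4HA1 (1 of 3), a collagen prolyl hydroxylase, stood at 5.04 and 6.34 with DMSO and at 10.7 and 16.3 with progesterone (1.09 ± 0.31). Each of the 3 had both progesterone libraries above all others. Slc2a1b is also a member of the glycolysis list and is counted there again. Glycolysis had 3 of 16 higher and 0 lower, with gapdhs, a glyceraldehyde phosphate dehydrogenase, which stood at 7.93 and 11.3 with DMSO and at 41.4 and 28.4 with progesterone (1.76 ± 0.30); its median was 0.30 (-0.30 as deposited, 0.18 without the progesterone library of experiment 2).

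Extracellular matrix genes had a change above 0 in 30 of the 42 tested. Of 73 in the table, 42 were tested, 16 higher and 1 lower at an unadjusted p under 0.05, and in 25 the progesterone libraries lay above both DMSO libraries. The median was 0.69 (0.49 and 0.86 by experiment; 0.0803 as deposited) and 0.41 without the progesterone library of experiment 2. Col15a1b, a collagen of the basement membrane zone, stood at 83.2 and 94.6 with DMSO and at 186 and 193 with progesterone (1.09 ± 0.19). A pair of entries named lamb1a, a laminin chain, stood at 30.3 and 34.1 with DMSO and at 71.2 and 95.4 with progesterone (1.33 ± 0.23) and stood at 33.4 and 46.3 with DMSO and at 89.5 and 111 with progesterone (1.32 ± 0.25), between which reads could be split. Col1a1a, the fibrillar collagen I chain, stood at 1.97 and 2.37 with DMSO and at 8.501 and 20.4 with progesterone (2.17 ± 0.45). Lama1, the laminin partner of lamb1a, stood at 70.01 and 65.2 with DMSO and at 115 and 162 with progesterone (1.01 ± 0.24), and the agrn entry ENSDARG00000079388, agrin, stood at 25.6 and 20.995 with DMSO and at 44.9 and 69.97 with progesterone (1.24 ± 0.28), both named after their values were seen. The uninjected cells were near the DMSO morphants for the laminins, as for lama1 at 56.9 and 60.3. Emilin3a, an elastin-associated glycoprotein of the notochord sheath, was the lower member, at 15.2 and 58.9 with DMSO and 2.99 and 3.74 with progesterone, and at 4.299 and 0.423 in uninjected cells; it was named after its values were seen.

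In the BMP and TGF-beta pathway 6 of 33 tested genes were higher and 1 lower at an unadjusted p under 0.05, with a median of 0.33 (-0.26 as deposited, 0.12 without the progesterone library of experiment 2 and 0.14 without the DMSO library of experiment 1). Of the 6 higher genes 4 averaged 1 or more scaled FPKM with DMSO, so the filter may have kept the others for their level with progesterone, and the lower gene was listed at 0 in at least 1 progesterone library. The receptor entry bmpr1bb (ENSDARG00000075729) stood at 8.39 and 3.96 with DMSO and at 54.1 and 40.4 with progesterone (2.81 ± 0.36) and another entry of that name stood at 5.74 and 4.98 with DMSO and at 11.4 and 12.05 with progesterone (1.002 ± 0.26). For the former the uninjected cells, at 24.6 and 26.2, stood between the groups. Tgfbr2, the type II TGF-beta receptor, stood at 1.55 and 1.52 with DMSO and at 5.16 and 14.9 with progesterone (1.97 ± 0.53), beside 5.92 and 10.2 in uninjected cells, which fell within the progesterone values. Of 40 Wnt genes 4 were higher (10%) and 0 lower (0%) at an unadjusted p under 0.05. Of 20 FGF genes 1 was higher (5%) and 1 lower (5%). The background was 7.25% and 9.71%, so the shares of higher genes were near it. The list medians were -0.0056 for Wnt and 0.038 for FGF, and the sign of the Wnt median turned under 5 alternatives. Fzd6, a Wnt receptor, stood at 1.84 and 3.22 with DMSO and at 10.1 and 8.69 with progesterone (1.59 ± 0.36), and the FGF receptor gene fgfr3 stood at 16.2 and 16.8 with DMSO and at 3.11 and 6.37 with progesterone (-1.67 ± 0.35).

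Neural crest genes had a change above 0 in 24 of the 39 tested and below 0 in 15. The change of 25 lay above the median of all genes, so the split by sign was not far from even. Sox10, by which the cells were sorted, stood at 129 and 115 with DMSO and 205 and 103 with progesterone, and at 112 and 112 in uninjected cells (0.26 ± 0.34). Of 39 tested crest genes 7 were higher (17.9%) and 2 lower (5.13%) at an unadjusted p under 0.05. The background was 7.25% and 9.71%, and the list median was 0.17 (-0.40 as deposited). Sox9b, a crest specifier, stood at 10.7 and 9.63 with DMSO and at 37.4 and 22.5 with progesterone (1.43 ± 0.31), and snai1b, a factor of epithelial to mesenchymal transition, stood at 53.4 and 94.4 with DMSO and at 324 and 174 with progesterone (1.73 ± 0.40). For both the progesterone libraries were the highest. Sox9a, the paralog of sox9b, stood at 42.97 and 29.2 with DMSO and at 28.3 and 20.8 with progesterone (-0.53 ± 0.31), named after its values were seen. The crest specifiers tfap2a and pax3a, named after their values were seen, stood at 102 and 122 for tfap2a and 18.4 and 20.9 for pax3a with DMSO, and at 157 and 97.4 (tfap2a) and 19.8 and 18.5 (pax3a) with progesterone, with overlapping groups in each. Foxd3, an early crest factor, did not exceed 0.0016 in the morphant libraries. Summed over 51 crest genes the level was 1155 and 1057 with DMSO, 1855 and 1388 with progesterone and 1366 and 1358 in uninjected cells. High genes weigh most in this sum, such as snai1b above and ednrab, named after its values were seen. Ednrab stood at 161 and 122 with DMSO, 309 and 177 with progesterone and 263 and 252 in uninjected cells.

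The lower crest members were meis2a and hoxb1b, which are patterning genes as well. Meis2a, a TALE homeodomain cofactor of Hox proteins, was at 9.48 and 10.7 with DMSO and 0.278 and 0 with progesterone, and at 9.91 and 6.47 in uninjected cells (adjusted p = 0.124). Hox genes set position along the body axis, and of 22 tested 8 were lower and 0 higher at an unadjusted p under 0.05. Hoxb1b was at 4.198 and 4.75 with DMSO, hoxd4a at 3.43 and 3.53, hoxc6a at 2.22 and 1.84 and hoxc6b at 4.04 and 1.13. With progesterone hoxb1b, hoxc6a and hoxc6b were listed at 0 in both libraries and hoxd4a stood at 0.446 and 0. Of the 8 lower genes 7 were listed at 0 in at least 1 progesterone library, and genes of this level were listed at 0 more often there in general. Hoxa3a and hoxb3a, the Hox genes above 10 in both DMSO libraries, were at 34.9 and 21.7 for hoxa3a and 15.4 and 10.1 for hoxb3a with DMSO, and at 22.7 and 15.4 (hoxa3a) and 13.5 and 7.28 (hoxb3a) with progesterone, with overlapping groups; they were named after their values were seen.

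Neural genes, markers of neurons and neural tube that the gate could also hold, had a change below 0 in 21 of the 26 tested. Of 47 in the table, 26 were tested, 15 lower and 1 higher at an unadjusted p under 0.05, with a median of -1.27 (-1.24 and -1.26 by experiment; -1.59 as deposited). The tubulin genes tubb5 and tuba1a stood at 35.6 and 29.2 with DMSO and at 6.59 and 7.93 with progesterone (-2.01 ± 0.25) and stood at 58.6 and 53.96 with DMSO and at 16.5 and 19.7 with progesterone (-1.59 ± 0.21), and tuba1c stood at 41.6 and 34.4 with DMSO and at 7.69 and 13.6 with progesterone (-1.79 ± 0.31). Elavl3, an RNA-binding protein of early neurons, stood at 30.5 and 28.6 with DMSO and at 7.61 and 7.34 with progesterone (-1.85 ± 0.33). These 4 were above 6 scaled FPKM in every library, so none rests on a value of 0, and for each the progesterone libraries were the 2 lowest of 6. The summed level of the 47 genes was 313 and 284 with DMSO, 118 and 155 with progesterone and 179 and 186 in uninjected cells, with 5 and 8 genes listed at 0 with DMSO and 16 and 22 with progesterone. Of the 15 lower genes 9 were above 0 in both progesterone libraries.

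The Notch pathway carries signals between neighbouring cells, among them from newborn neurons to the cells next to them. Of 27 of its genes tested, 7 were lower and 1 higher at an unadjusted p under 0.05, against a list median of -0.046. Of the 7 lower genes 4 were listed at 0 in at least 1 progesterone library, and the higher gene averaged under 1 scaled FPKM with DMSO. The lower ligand genes dla, dlb and dld are also members of the neural list. The receptor entry notch1a (ENSDARG00000096282) was among the 7, at 67.7 and 37.9 with DMSO and 15.5 and 0 with progesterone. Other notch1a entries did not differ at an unadjusted p under 0.05. ENSDARG00000077129 was at 25.7 and 25.8 with DMSO and 30.4 and 33.7 with progesterone (0.30 ± 0.21). ENSDARG00000044841 was at 22.4 and 23.98 and then 25.1 and 25.2 (0.11 ± 0.21). As deposited, their FPKM were 31.95 and 28.2 and then 28.4 and 19.6 for the former, and 27.9 and 26.2 and then 23.5 and 14.6 for the latter. Reads could be split among these entries, named after their values were seen, so each level is uncertain. Hes6, a proneural helix-loop-helix factor, was at 6.22 and 12.7 with DMSO and 1.47 and 0 with progesterone. The ligand gene dlb stood at 5.19 and 6.06 with DMSO and at 1.37 and 1.31 with progesterone (-1.50 ± 0.33), and her8a, a target, stood at 4.39 and 4.51 with DMSO and at 1.52 and 0.675 with progesterone (-1.41 ± 0.38). The receptors notch2 and notch3, named after their values were seen, stood at 8.95 and 6.52 for notch2 and 17.003 and 19.5 for notch3 with DMSO, and at 11.9 and 12.9 (notch2) and 14.5 and 22.3 (notch3) with progesterone, with notch2 above the DMSO libraries and below the uninjected ones and notch3 overlapping. Of 21 otic markers 9 were tested, 1 higher and 2 lower at an unadjusted p under 0.05, with a median of 0.097. Oc90, whose product is part of the otolith matrix, stood at 5.71 and 4.59 with DMSO and at 18.04 and 21.9 with progesterone (1.77 ± 0.27). Uninjected cells had 20.3 and 16.5. Stm, starmaker, stood at 5.85 and 7.32 with DMSO and at 0.943 and 0.653 with progesterone (-2.07 ± 0.34), beside 12.2 and 8.71 in uninjected cells. The other lower marker, dlx3b, was at 5.53 and 2.18 with DMSO and listed at 0 in both progesterone libraries, beside 5.92 and 6.65 in uninjected cells.

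Markers of further cell types that the gate could hold were at low levels apart from the epidermal ones. Of the 31 epidermal genes 10 were tested with 0 higher and 0 lower at an unadjusted p under 0.05, and their sum was 110.5 and 219 with DMSO and 97.7 and 183 with progesterone. The 24 muscle and somite genes summed to 9.45 and 9.197 with DMSO and 18.5 and 32.2 with progesterone, with acta1a, a skeletal actin, which stood at 4.03 and 2.85 with DMSO and at 15.2 and 22.6 with progesterone (2.15 ± 0.39). The 16 endothelial genes summed to 32.8 and 24.8 with DMSO and 16.9 and 7.24 with progesterone, of which fli1a, also made in crest, stood at 28.3 and 20.5 with DMSO and at 13.7 and 5.33 with progesterone (-1.38 ± 0.44). The 12 notochord genes summed to 32.8 and 50.3 with DMSO and 22.5 and 45.6 with progesterone, and the 21 blood genes to 13.5 and 11.1 and 10.4 and 18.5. The part of these cells, and of the neural and endodermal ones above, in the differences of other lists was not tested.

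Genes of mitosis had a change below 0 in 51 of the 54 tested. Of 57 in the table, 54 were tested, 21 lower and 0 higher at an unadjusted p under 0.05, and in 33 both progesterone libraries lay below both DMSO libraries, against 24.9% of all genes. The median was -0.83 (-0.82 and -0.79 by experiment; -1.39 as deposited). Plk1, a kinase of mitotic entry and exit, stood at 241 and 208 with DMSO and at 95.5 and 69.4 with progesterone (-1.45 ± 0.24). Ccnb1, cyclin B1, stood at 33.6 and 35.3 with DMSO and at 16.03 and 13.5 with progesterone (-1.17 ± 0.22), and ccna2, cyclin A2, stood at 62.4 and 71.7 with DMSO and at 18.6 and 31.2 with progesterone (-1.43 ± 0.31). Mad2l1, of the spindle checkpoint, stood at 32.4 and 29.3 with DMSO and at 10.6 and 4.59 with progesterone (-1.98 ± 0.38). In all 4 genes the progesterone libraries were the 2 lowest and uninjected cells lay near the DMSO morphants, as with plk1 at 217 and 255. Of the 21 lower genes 20 were above 0 in both progesterone libraries.

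DNA replication genes had a change below 0 in 56 of the 64 tested, with 19 lower and 2 higher at an unadjusted p under 0.05, 1 of the latter at a mean under 1 with DMSO. Their median was -0.70, but -0.31 without the progesterone library of experiment 2. The ribonucleotide reductase entry rrm2 (ENSDARG00000020711) stood at 79.3 and 68.5 with DMSO and at 29.9 and 20.7 with progesterone (-1.53 ± 0.25), while a second entry of that name (ENSDARG00000078069) stood at 102 and 91.9 with DMSO and at 80.7 and 59.7 with progesterone (-0.48 ± 0.23). Rfc5, a clamp loader subunit, stood at 20.2 and 20.96 with DMSO and at 7.74 and 8.33 with progesterone (-1.26 ± 0.23), LIG1, the replicative ligase, stood at 24.01 and 22.4 with DMSO and at 10.02 and 7.81 with progesterone (-1.29 ± 0.23), and pcna, the sliding clamp, stood at 173 and 182 with DMSO and at 96.5 and 102 with progesterone (-0.83 ± 0.19). With progesterone all of these lay below the other 4 libraries, and LIG1 was at 28.4 and 30.98 in uninjected cells.

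Nucleotide synthesis genes, the pathway of the series' title, had 5 of 36 tested lower and 2 higher at an unadjusted p under 0.05, shares near the background. Their median was -0.31, between -0.48 and -0.043 without the progesterone library of experiment 1 or 2 and -0.17 without the DMSO library of experiment 2. Umps, which makes UMP, stood at 30.1 and 26.6 with DMSO and at 15.3 and 16.4 with progesterone (-0.80 ± 0.21), and adssl, of AMP synthesis, stood at 29.2 and 20.98 with DMSO and at 12.7 and 6.97 with progesterone (-1.30 ± 0.34). Cad, which starts pyrimidine synthesis, was higher at an unadjusted p under 0.05 at 95.8 and 109 with DMSO and 149.8 and 141 with progesterone, and uninjected cells had 139 and 142; it was named after its values were seen, as was ddx21, the helicase of the series' title, at 60.6 and 86.3 with DMSO, 106 and 105 with progesterone and 68.7 and 78.9 in uninjected cells.

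Of 15 histone genes tested, 2 were higher and 6 lower at an unadjusted p under 0.05, with a median of -0.40 that was -0.87 without the progesterone library of experiment 1 and -0.61 without the DMSO library of experiment 2. Histh1l, a linker histone H1, stood at 25.5 and 18.2 with DMSO and at 105 and 221 with progesterone (2.77 ± 0.40), and h1f0, the replacement H1 of cells that leave the cycle, stood at 4.91 and 2.12 with DMSO and at 31.8 and 12.6 with progesterone (2.30 ± 0.55). Entries named hist2h3c made up 5 of the lower genes, led by ENSDARG00000097785, which stood at 127 and 112 with DMSO and at 52.1 and 65.3 with progesterone (-1.02 ± 0.22); reads could be split among these copies, so each is uncertain. The other lower member was an entry of the replacement histone H3.3, h3f3a (ENSDARG00000020504), which stood at 803 and 929.9 with DMSO and at 548 and 320.3 with progesterone (-1.04 ± 0.32), while ENSDARG00000045248 of the same name stood at 631 and 714 with DMSO and at 674 and 595 with progesterone (-0.083 ± 0.23); both were named after their values were seen.

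Cytosolic ribosomal protein genes had 16 of 90 tested higher and 0 lower at an unadjusted p under 0.05, and in 53 both progesterone libraries lay above both DMSO libraries. Their median was 0.49 (0.42 and 0.50 by experiment), which turned to -0.17 with FPKM as deposited, 0.41 above the median of all genes on that scale. Faua, which encodes ribosomal protein S30 fused to a ubiquitin-like part, stood at 116 and 87.9 with DMSO and at 229 and 233 with progesterone (1.19 ± 0.22), rpl9 stood at 131 and 126 with DMSO and at 281 and 219.5 with progesterone (0.94 ± 0.22) and rpl12 stood at 349.96 and 349 with DMSO and at 606 and 688 with progesterone (0.88 ± 0.21). For these 3 genes uninjected cells stood between the groups, as for rpl12 at 509 and 475. Entries at a high level, small RNA included, were more often higher than lower with progesterone after scaling. Of 367 at a mean of 100 scaled FPKM or more over the 6 libraries, 86 were higher and 32 lower at an unadjusted p under 0.05. Over all levels 77 of 443 small RNA entries were higher and 8 lower. Their part in the 86 was not tested.

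Copies of the signal recognition particle RNA, the RNA that guides ribosomes to the endoplasmic reticulum, were higher in 57 of 64 tested entries at an unadjusted p under 0.05, with a median change of 1.63 (1.46 and 1.78 by experiment). U2 small nuclear RNA was higher in 8 of 13 entries, while U1 was higher in 4 and lower in 2 of 193. These are multi-copy genes among which reads could be split, so the entries are not separate observations. The part of the larger share of small RNA in the progesterone libraries, given above, was not tested.

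Mitochondrial ribosomal protein genes were lower in 15 of 61 tested and higher in 0 at an unadjusted p under 0.05. The median was -0.70, and -0.41 without the progesterone library of experiment 2. Of the lower genes 7 were listed at 0 in at least 1 progesterone library. Mrpl3 was at 11.3 and 13.5 with DMSO and 6.29 and 3.04 with progesterone, and mrpl15 was at 9.76 and 9.98 with DMSO and 2.81 and 0.302 with progesterone. Nuclear genes of oxidative phosphorylation were lower in 21 of 84 and higher in 2, with a median of -0.43 (-0.50 and -0.49 by experiment), and 5 of the lower genes were listed at 0 in at least 1 progesterone library. Cox4i1, a subunit of cytochrome oxidase, stood at 82.4 and 75.8 with DMSO and at 34.4 and 28.8 with progesterone (-1.30 ± 0.21), and cox6c was at 8.37 and 5.89 with DMSO and listed at 0 in both progesterone libraries. Cox4i1 stood below all other libraries with progesterone, with uninjected cells at 61.8 and 54.4.

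The 13 mitochondrially encoded genes differed between the 2 experiments. In experiment 1 their median change was -0.10 and in experiment 2 -2.09, and without the progesterone library of experiment 2 it was -0.11. Mt-co1, a cytochrome oxidase subunit, stood at 970.1 and 1098 with DMSO and 1219 and 337 with progesterone, the highest of the 6 libraries in experiment 1 and the lowest in experiment 2; it was named after its values were seen. In 8 of the 13 both progesterone libraries lay below both DMSO libraries, among them mt-nd4l, the member lower at an unadjusted p under 0.05, which stood at 88.6 and 97.4 with DMSO and at 45.6 and 43.02 with progesterone (-1.05 ± 0.22).

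Proteasome genes, which degrade ubiquitinated proteins, were lower in 17 of 44 tested and higher in 2 at an unadjusted p under 0.05. In 27 both progesterone libraries lay below both DMSO libraries. The median was -0.57 (-0.63 and -0.67 by experiment; -1.20 as deposited). Pomp, the assembly factor of the core, stood at 33.998 and 51.1 with DMSO and at 10.2 and 15.2 with progesterone (-1.66 ± 0.30). Psmd8, of the regulatory cap, stood at 39.1 and 32.8 with DMSO and at 14.3 and 17.5 with progesterone (-1.13 ± 0.23), and psmb4, of the core, stood at 63.8 and 66.5 with DMSO and at 26.2 and 37.9 with progesterone (-1.03 ± 0.24). Of the 17 lower genes 16 were above 0 in both progesterone libraries.

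**Figure D5:**
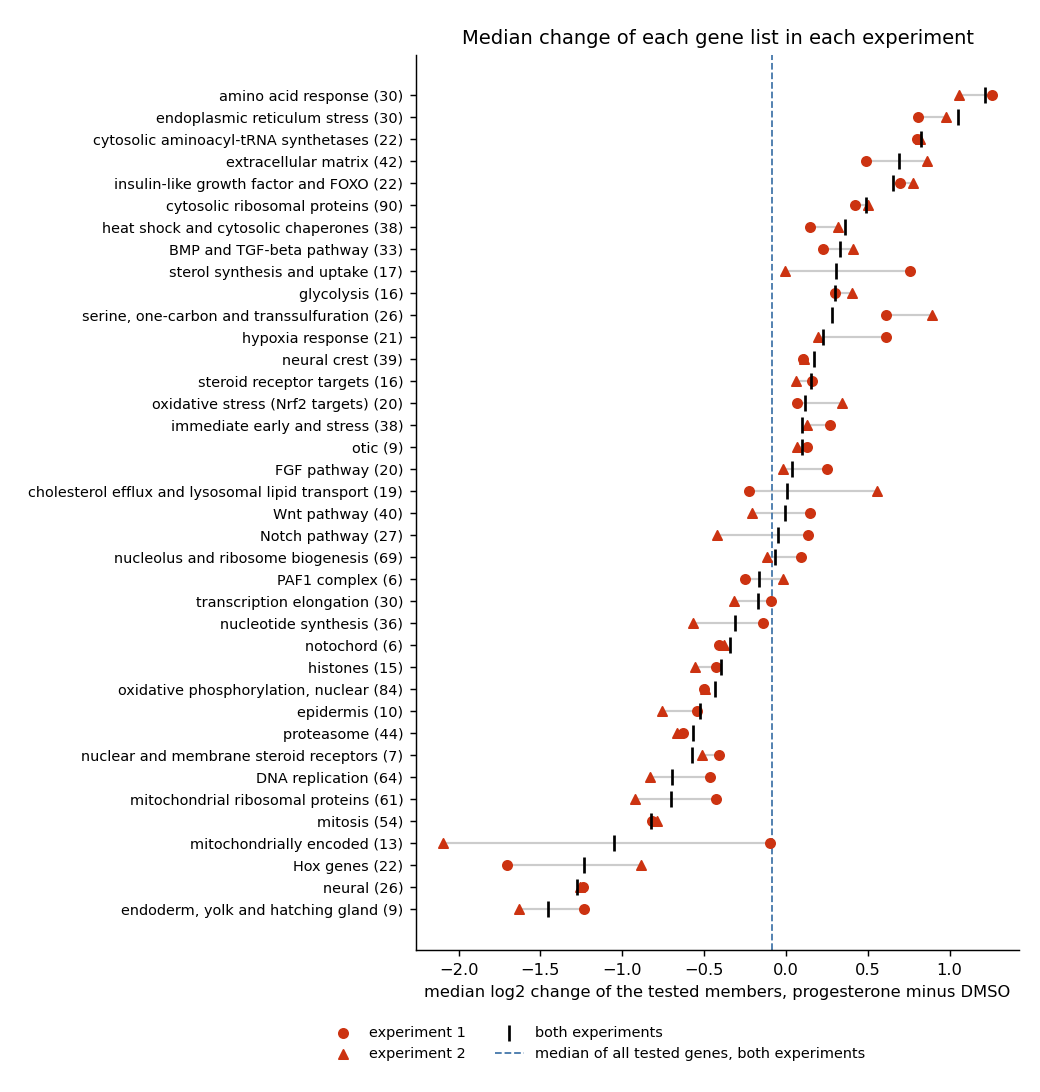
Median log2 change with progesterone (horizontal axis) of the tested genes of the lists reported here with 6 or more of them, in experiment 1 (circles), experiment 2 (triangles) and over both (bars), with the number tested in brackets and the median of all tested genes, -0.09, as a dashed line. The amino acid response list stands at 1.26 and 1.06, and the mitochondrially encoded genes at -0.10 and -2.09.

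The targeted gene and its complex did not differ with progesterone beyond their errors. Ctr9 stood at 33.9 and 33.5 with DMSO and 28.03 and 35.5 with progesterone (-0.094 ± 0.22), and at 13.97 and 15.2 in uninjected cells. A morpholino need not lower the mRNA of its target, so its FPKM is no check on the knockdown. Paf1 was at 13.9 and 8.83 with DMSO and 4.197 and 35.04 with progesterone, leo1 at 9.48 and 7.72 with DMSO and 8.79 and 8.44 with progesterone, and cdc73 at 14.4 and 17.2 and then 18.1 and 8.34. Rtf1 was at 19.8 and 11.3 with DMSO and 14.96 and 10.4 with progesterone, and wdr61 at 11.01 and 13.3 and then 9.21 and 11.2. All 6 genes overlapped between the groups, and the paf1 values of the 2 progesterone libraries were the lowest and the highest of all 6 libraries. Transcription elongation genes had 2 of 30 higher and 3 lower, and nucleolar and ribosome biogenesis genes 3 of 69 higher and 2 lower, all near or below the background. Among them mepce, which caps and holds 7SK RNA, stood at 5.34 and 6.76 with DMSO and at 12.2 and 27.04 with progesterone (1.46 ± 0.40), and ddx47, a nucleolar helicase, stood at 25.7 and 22.2 with DMSO and at 56.6 and 69.5 with progesterone (1.36 ± 0.24).

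Heat shock and cytosolic chaperone genes had 2 of 38 higher (5.26%) and 1 lower (2.63%) at an unadjusted p under 0.05. Their median was 0.36 (-0.28 as deposited, 0.014 without the progesterone library of experiment 2, 0.17 without the DMSO library of experiment 1). Immediate early and stress genes had 4 of 38 higher (10.5%) and 1 lower (2.63%), with a median of 0.10. Targets of Nrf2, the factor of oxidative stress, had 2 of 20 higher (10%) and 4 lower (20%), 2 of the latter listed at 0 in at least 1 progesterone library. The background was 7.25% and 9.71%. Gclm, of glutathione synthesis, stood at 6.05 and 9.02 with DMSO and at 17.7 and 19.6 with progesterone (1.23 ± 0.30), whereas nqo1, a quinone reductase, was at 1.13 and 1.22 with DMSO and listed at 0 in both progesterone libraries.

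Of the 15 genes with the smallest p among those with both progesterone libraries below both DMSO libraries and group means at least 1 apart on the log2 scale, small RNA left out, 9 were listed at 0 in both progesterone libraries. Of these cox6c, anapc16, atp6v1f, SMIM20 and gpc3 stood between 5.71 and 8.37 with DMSO. In uninjected cells gpc3 and MYO18B (3 of 4) were also listed at 0, SMIM20 was at 0.558 and 0.265, and the rest of the 9 were at 1.63 or more. CR392343.1 was at 76.2 and 216 with DMSO, si:ch211-222h17.9 at 4.58 and 6.11, BX296538.3 at 7.998 and 5.16 and MYO18B (3 of 4) at 5.102 and 8.99. The entry zgc:173552 stood at 42.4 and 39.7 with DMSO and at 13.6 and 10.2 with progesterone (-1.72 ± 0.22) and LRAT was at 7.304 and 4.96 with DMSO and 0 and 0.133 with progesterone. Of the corresponding 15 higher genes, dnal4b, a dynein light chain, stood at 3.27 and 3.32 with DMSO and at 17.3 and 18.8 with progesterone (2.15 ± 0.25), and si:rp71-80o10.4, an entry with no further description, stood at 0.607 and 0.353 with DMSO and at 9.83 and 12.04 with progesterone (3.01 ± 0.35). Igfbp1a apart, the other higher ones belonged to the amino acid response, synthetase, sterol or BMP lists or to that of serine, one-carbon and transsulfuration.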

How the data were processed

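RNA was measured in sorted cells after ribosomal RNA depletion and low-input library preparation, with paired reads of 100 bases, per the labels' protocols. The authors deposited 1 table of FPKM, per the file header. The submitters' processing notes name cutadapt, TopHat2 2.0.11 and Cufflinks 2.2.1 as tools and list Zv9 and hg19 as builds without their role. The sources used here do not say whether strand was used. Columns were assigned by name. From the 33827 entries, 92 ERCC transcripts were left out and 1 stray header row was removed. FPKM were divided by median-ratio size factors. The log2(scaled FPKM + 1) values were fitted with limma 3.58.1 in R 4.3.3 over 3 groups of 2 libraries. The fit had a variance trend, two-sided tests and Benjamini-Hochberg adjustment over 13145 genes. The procedure was run on simulated data with changes of known size and the same spread in all groups. Those data lacked the added zeros of the progesterone libraries, so they do not show how it treats genes listed at 0 there. Called means an adjusted p of at most 0.05.

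The 43 gene lists, like the comparison itself, were chosen with earlier results of these data known. Some genes are members of more than 1 list, so the counts of different lists are not separate observations. Named genes are the 15 higher and 15 lower genes with the smallest p, separated between groups and at least 1 apart on the log2 scale, up to 4 members per list with the smallest p, and always ctr9 and its complex, sox10 and the steroid receptors; others are marked as named after their values were seen. Alternatives were other scalings, filters and pseudocounts, small RNA left out, no trend, fewer libraries and the replicate block. A list and a few genes are not reported here.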

Additional observations from a re-analysis of the deposited data

How the results depend on the processing

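The alternatives were run for 158 named genes, which do not include every gene printed above. Of 2568 pairs of such a gene and an alternative, 2394 kept their direction and their side of the adjusted threshold. In 109 pairs it was passed newly, in 13 it was lost and in 52 the sign turned. The 13 were all of igfbp1a. Of the 109, 108 arose without the progesterone library of experiment 1. Of 43 lists, 40 stayed on the same side of the median of all genes with FPKM as deposited, and the exceptions were the nucleolus, Notch and Wnt lists.

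At an adjusted p of at most 0.05, 0 genes were higher with FPKM as deposited, with upper-quartile scaling, with a pseudocount of 0.1 or of 5, with no filter, with the 4 morphant libraries alone, with the replicate block and without a trend in the variance. The same count of 0 came with a mean FPKM of at least 20, an alternative chosen after seeing the data. With 1 library left out, between 0 and 1060 genes were higher and between 0 and 1550 lower. The counts at an unadjusted p under 0.05 were 247 higher and 2608 lower as deposited, 617 and 623 at a mean FPKM of at least 5, 242 and 231 at a mean of at least 20, and 1096 and 2184 with no filter. The 4 morphant libraries alone gave 560 and 869. With 1 library left out the higher genes numbered 538 to 2256 and the lower ones 787 to 3184. The cause was not tested.

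The replicate block, with the experiment number as a term on the 4 morphant libraries, gave 539 higher and 809 lower genes at an unadjusted p under 0.05. The numbers do not pair the samples by the labels, and the deviations of same-numbered libraries correlated at r = 0.0752 across genes, with 2 pairs.

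Sign turned for genes with small or unstable changes, none of which passed the adjusted threshold with all libraries and scaling. With FPKM as deposited, where the median of all genes is -0.58, the change was -0.15 for cad, -0.38 for calr, -0.022 for ddit3, -0.12 for ddx21, -0.44 for ern1, -0.38 for klf9, -0.58 for leo1, -0.26 for npc1, -0.34 for p4hb, -0.44 for paf1, -0.52 for rars, -0.49 for shmt1, -0.40 for sox10 and -0.51 for tfap2a. With upper-quartile scaling it was -0.0399 for ern1, -0.011 for klf9 and -0.091 for leo1, with a pseudocount of 0.1 it was -0.052 for ern1 and -0.87 for klf9, at a mean FPKM of at least 5 it was -0.0079 for leo1, and with the 4 morphant libraries alone or the block -0.0059 for leo1. With 1 library left out the change ranged from -0.85 to 0.20 for cdc73, -0.26 to 0.063 for ctr9, -3.11 to 0.82 for ddit4, -2.97 to 0.65 for eif4ebp3l, -1.46 to 1.57 for ern1, -0.18 to 0.0103 for h3f3a, -0.71 to 0.11 for hoxb3a, -0.21 to 0.14 for kars, -1.21 to 1.21 for klf9, -0.13 to 0.14 for leo1, -1.62 to 0.24 for mt-co1, -0.31 to 0.27 for notch3, -1.23 to 1.57 for paf1, -0.12 to 0.055 for pax3a, -0.64 to 0.39 for pgrmc2, -0.12 to 0.34 for rars, -0.62 to 0.13 for rtf1, -0.93 to 1.21 for shmt1, -0.24 to 0.75 for sox10 and -0.20 to 0.49 for tfap2a. Klf9 and eif4ebp3l were listed at 0 in 1 progesterone library, so their values depend on the pseudocount and are no folds. With 2 libraries a side, 3 residual degrees of freedom and low genes often listed at 0 with progesterone, differences of genes under about 5 scaled FPKM are the least certain.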

Other observations

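The ERCC spike-in transcripts, which entered no comparison, summed to 229 and 139 FPKM in the DMSO libraries of ctr9 morphants and to 173 and 69.3 in the progesterone libraries. In the uninjected libraries they summed to 1.96 and 22.4 FPKM. The amounts added are not given in the sources used here, so no scaling was made from them.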
